A study of Homo sapiens with 2 samples.

Results

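The genes described here are 9 genes of insulin-like growth factor (IGF) and insulin signalling, out of the 11619 genes with a value in both libraries of the series. The 9 genes were IGFBP4, IGF1R, IGF2R, INSR, IRS2, PIK3R1, AKT1, AKT2 and FOXO3. They were chosen by name as parts of 1 pathway, and IGFBP4 was taken because its level fell far in these same data, so its change and the number of members with a change are given as a description. NB4 is an established human line of acute promyelocytic leukemia (APL), with PML/RARα as its fusion gene. The study asked which transcripts changed when the long non-coding RNA CRNDE was knocked down in these cells. NB4 cells were infected with lentivirus for the CRNDE shRNA (sh-CRNDE) or for a non-targeting control shRNA (sh-Control), and RNA was taken on day 3 from both. Both groups thus shared the cell line, the viral vector with its ZsGreen1 marker and the day of harvest. The study designed more than 1 CRNDE shRNA, and the sources used here do not state which of them the sequenced cells carried. Each group had 1 library, so the spread between replicates is unknown and p-values are not given. Library depth is unknown, since the values are FPKM, fragments scaled to transcript length and to the mapped total. The median FPKM was 3.95 in sh-Control and 3.89 in sh-CRNDE. CRNDE itself was at 5.92 FPKM in the control library and 1.85 FPKM after CRNDE knockdown.

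IGF1 and IGF2 are growth factors that circulate bound to carrier proteins, the IGF-binding proteins, which hold them away from their receptors. IGF1R and INSR are related receptor tyrosine kinases that signal through the IRS adaptors to the lipid kinase PI3K and from there to the AKT kinases, which keep the FOXO transcription factors out of the nucleus. IGF2R has no kinase domain: it takes up and clears IGF2 and carries enzymes with a mannose 6-phosphate tag to the lysosome. In myeloid cells this pathway is known for signals of growth and survival.

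Of these genes, IGFBP4 was much lower in sh-CRNDE, and both IGF receptors, IGF1R and IGF2R, were moderately lower, while the insulin receptor, the adaptor, the PI3K subunit, the AKT kinases and FOXO3 stayed within 1.5-fold. The change of a gene is its log2(FPKM + 1) in sh-CRNDE less that in sh-Control, and a change past 1.5-fold is one beyond 0.585 on this scale in either direction. Of the 9 genes, 3 were lower past 1.5-fold and 0 were higher past it. Of all 11619 genes, 8.83% were lower and 8.38% were higher past the same threshold. The share is given beside the count, and nothing is read from it, since the genes were picked with these values known. The changes of the other 6 genes ran from -0.24 to 0.07, within the middle of all genes, whose 25th and 75th percentiles were -0.26 and 0.23. The median change was -0.14 over the 9 genes and -0.01 over all genes. In these bulk samples, fewer cells of a kind and less RNA per cell cannot be told apart. All 9 genes were above 1 FPKM in both libraries, and none of the changes rests on a value of 0.

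**Figure D1:**
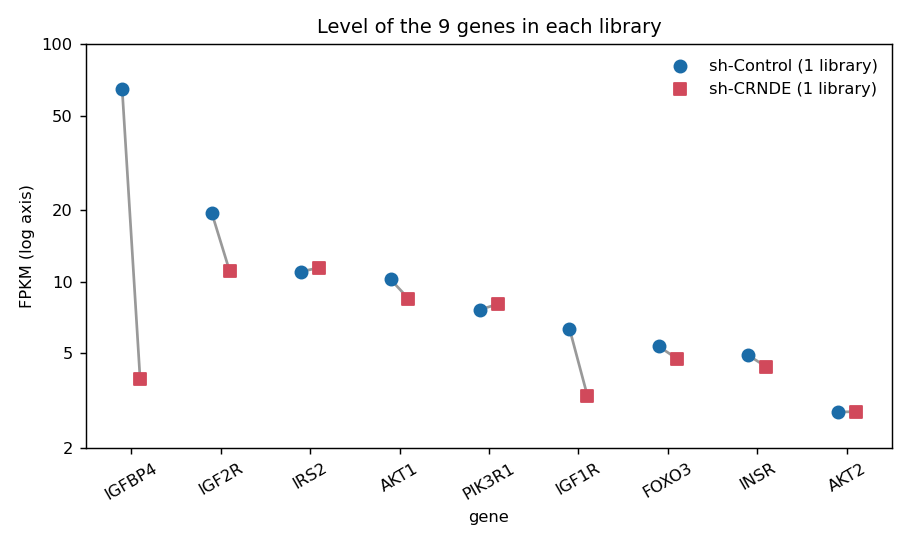
FPKM (log axis) of each of the 9 genes in the sh-Control library (circles) and the sh-CRNDE library (squares), joined by a line and ordered by the level in sh-Control. IGFBP4 went from the highest of the 9 genes in sh-Control to the seventh in sh-CRNDE, and the points of AKT2 lie at the same height.

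IGFBP4 encodes a secreted protein that binds IGF1 and IGF2 and is known mainly as an inhibitor of their action. IGFBP4 (ENSG00000141753) lies on the plus strand of chromosome 17 from 40443450 to 40457725 (GRCh38), with 4 exons and 1 annotated transcript of 2205 nucleotides. Its level was 64.5 FPKM in the control library and 3.92 FPKM after CRNDE knockdown. The sh-CRNDE library thus held 6.07% of the control FPKM, a 16.5-fold lower value. On the log2(FPKM + 1) scale the change was -3.74, and 19 of all genes had a lower change. Among 1446 genes that averaged 20 FPKM or more, the class to which IGFBP4 belongs, 6 genes had a lower change, and 8.02% of the class were lower past 1.5-fold. IGFBP4 ranked above 97.1% of all genes in sh-Control and above 50.2% in sh-CRNDE, so its level went from the top of the distribution to its middle. Its transcript has a GC content of 62.6%, which is higher than that of 92.3% of the genes with an annotation. Genes of similar GC content had a median change of -0.26, and the change of IGFBP4 less that median was -3.48. No exon of the canonical transcript overlaps an exon of another annotated gene, and 0 of its 2175 stretches of 31 nucleotides occur in a transcript of another gene.

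The study's qRT-PCR primers for IGFBP4 are shown, since they mark which part of the transcript such an assay reads. Capitals in the forward primer are the bases that lie in exon 2, and the other bases of that primer lie in exon 1.
IGFBP4 forward: cagccctctgACAAGGACG
IGFBP4 reverse: tctcgaattttggcgaagtgc
The forward primer matches chromosome 17 from 40444075 to 40444084 and from 40452985 to 40452993, and the reverse primer matches 40453058 to 40453078 (GRCh38, GENCODE release 44). The primers frame 104 nucleotides of the coding sequence, and each has 1 match in the transcript. The product crosses the first intron, so it covers spliced RNA, while the FPKM value covers the whole gene.

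The other listed carrier genes also had lower values in sh-CRNDE, inside the threshold on the log2(FPKM + 1) scale. IGFBP2, a carrier protein gene often active in leukemia cells, was at 30.8 FPKM in the control library and 22.5 FPKM after CRNDE knockdown, a change of -0.44. IGFBP7, whose product binds IGFs only weakly, was at 5.97 FPKM in the control library and 3.86 FPKM after CRNDE knockdown, a change of -0.52. Its FPKM ratio was 1.55, and with a pseudocount of 0.1 in place of 1 its change was -0.62, past 1.5-fold. Of the exons of IGFBP7, 260 nucleotides (18.2%) overlap those of POLR2B on the opposite strand, and the library kit does not mark the strand. POLR2B was at 44.2 FPKM in the control library and 47.4 FPKM after CRNDE knockdown. Reads of the shared stretch, and so part of the listed IGFBP7 level, may not be from IGFBP7. The make-up of the carrier transcripts differed between the libraries, which follows from the fall for which IGFBP4 was picked. The share of IGFBP2 was higher in sh-CRNDE although its own FPKM was lower. IGFBP4 was 63.7% of the summed FPKM of the 3 genes in sh-Control and 12.9% in sh-CRNDE, while IGFBP2 was 30.4% and 74.3%. The sum itself was 101.2 FPKM in the control library and 30.2 FPKM after CRNDE knockdown. These shares are taken within a library, so a factor common to all genes of the library does not change them. The ligand genes IGF1, IGF2 and INS, the carrier genes IGFALS, IGFBP1, IGFBP3, IGFBP5 and IGFBP6, and PAPPA, PAPPA2, STC1 and STC2, which encode proteases of the carriers and inhibitors of these, had no listed value, and each listed gene exceeds 0.5 FPKM in one library or both.

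The IGF receptors were both lower in sh-CRNDE, and the insulin receptor was close to its control level. IGF1R encodes the receptor for IGF1 and IGF2. It was at 6.35 FPKM in the control library and 3.32 FPKM after CRNDE knockdown. Its change was -0.77, and 5.40% of all genes had a lower change. Among the 4318 genes with a mean of 1 to 5 FPKM, 5.77% had a lower change, and 8.87% were lower past 1.5-fold. IGF1R (ENSG00000140443) has 21 exons on the plus strand of chromosome 15 from 98648539 to 98964530 and a transcript of 12235 nucleotides, of which 7088 are 3' UTR. The qRT-PCR primers for IGF1R are shown for the same reason as those of IGFBP4.
IGF1R forward: tcgacatccgcaacgactatc
IGF1R reverse: ccagggcgtagttgtagaagag
They match chromosome 15 from 98707577 to 98707597 and from 98707798 to 98707819. Both lie in exon 2, within the coding sequence, and frame 243 nucleotides without an intron. The primer sites are present in 3 of the 17 annotated transcripts of the gene.

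IGF2R encodes the mannose 6-phosphate receptor that binds IGF2. It was at 19.6 FPKM in the control library and 11.1 FPKM after CRNDE knockdown. Its change was -0.76, and 5.49% of all genes had a lower change. Among the 3651 genes with a mean of 5 to 20 FPKM, 5.29% had a lower change, and 8.98% were lower past 1.5-fold. IGF2R (ENSG00000197081) lies on the plus strand of chromosome 6 from 159969082 to 160113507, with 48 exons and a transcript of 14061 nucleotides. Its GC content of 49.4% is close to the middle of all genes, and that of IGF1R is 51.7%. The changes of IGF1R and IGF2R were close to each other. Past 2-fold, only IGFBP4 of the 9 genes was lower, beside 3.23% of all genes. Stretches of 31 nucleotides shared with other genes made up 0.164% of the IGF1R transcript and 1.48% of the IGF2R transcript, and no exon of either canonical transcript overlaps an exon of another annotated gene.

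INSR encodes the insulin receptor, which also forms hybrid receptors with IGF1R. It was at 4.91 FPKM in the control library and 4.39 FPKM after CRNDE knockdown, a change of -0.13. INSR has 22 exons and spans 7112255 to 7294414 of chromosome 19, minus strand, and 0 of its stretches of 31 nucleotides occur in another gene. Since FPKM is scaled by transcript length, levels of different genes can be set side by side within a library. IGF1R was at 1.29 times the level of INSR in sh-Control and 0.756 times in sh-CRNDE, so the order of the receptors was the opposite in the libraries. IGF2R was at 3.08 times the level of IGF1R in sh-Control and 3.35 times in sh-CRNDE. M6PR encodes the other receptor for the mannose 6-phosphate tag and was at 21.5 FPKM in the control library and 23.1 FPKM after CRNDE knockdown. The ratio of IGF2R to M6PR was 0.908 in sh-Control and 0.481 in sh-CRNDE. INSRR, the orphan receptor of this family, had no listed value. Without replicates, the spread of these ratios between libraries of 1 condition is not known.

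**Figure D2:**
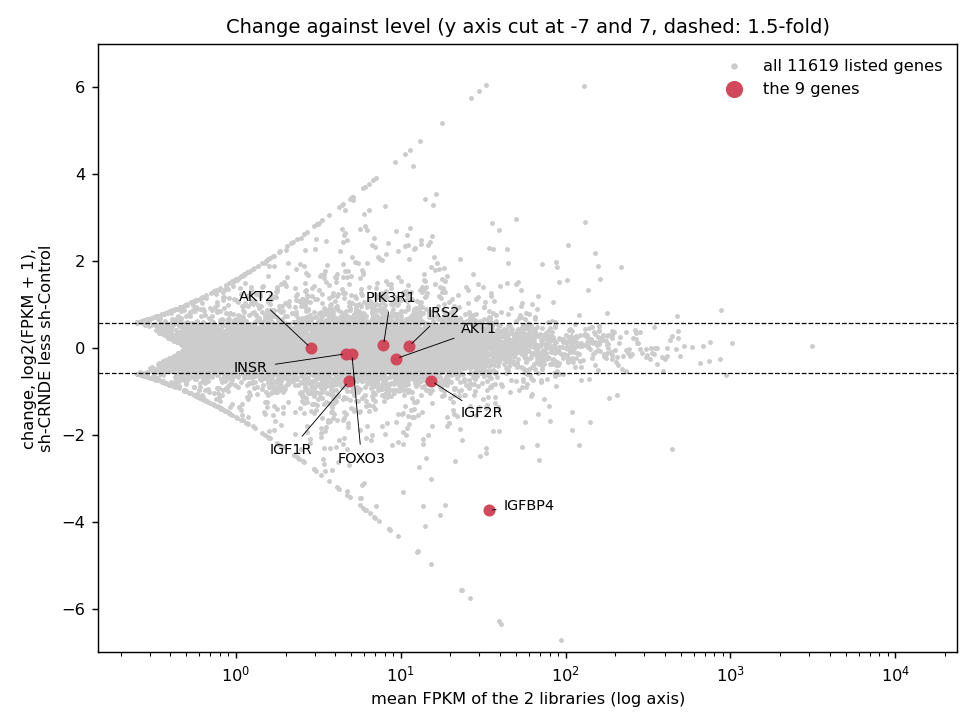
Change of each listed gene (log2(FPKM + 1) in sh-CRNDE less that in sh-Control) against its mean FPKM (log axis), with the 9 genes named and dashed lines at 1.5-fold. IGFBP4 (-3.74) lies far below the lower line, with 6 genes of its level class below it, IGF1R and IGF2R lie just past the lower line, and the other 6 genes lie near 0. The axis leaves out 2 genes with a change above 7.

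Below the receptors, the listed levels of IRS2, PIK3R1, AKT1, AKT2 and FOXO3 stayed within 1.5-fold. IRS2 encodes the adaptor that links the receptors to PI3K and is itself known to be turned on by FOXO factors. It was at 11.0 FPKM in the control library and 11.5 FPKM after CRNDE knockdown, a change of 0.05. This made IRS2 the highest of the 9 genes in sh-CRNDE and the third in sh-Control. With the GC median subtracted the change of IRS2 was 0.23. Its close relative IRS1 was at 0.749 FPKM in the control library and 0.980 FPKM after CRNDE knockdown, so IRS2 was the main listed IRS transcript in both libraries. IRS2 has 2 exons and spans 109752695 to 109786583 of chromosome 13, minus strand.

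PIK3R1 encodes p85, a regulatory subunit that ties PI3K to IRS proteins. It was at 7.65 FPKM in the control library and 8.05 FPKM after CRNDE knockdown, a change of 0.07. Genes of its GC content had a median change of 0.15, and less that median PIK3R1 was at -0.09, so its direction is not settled. PIK3R1 lies on the plus strand of chromosome 5 from 68215740 to 68301821 and has the lowest GC content of the 9 genes, 40.1%. PIK3R2, which encodes the related p85 subunit, was at 9.40 FPKM in the control library and 0.0709 FPKM after CRNDE knockdown, a change of -3.28. PIK3R2 lies within chromosome 19 from 18153163 to 18170532, and 3942 of the 3980 nucleotides of its canonical transcript (99.0%) are also exons of a gene on the same strand that the files name AC007192.4. That gene went the other way, from 0.208 FPKM in the control library to 5.87 FPKM after CRNDE knockdown. Reads from most of this transcript cannot be told apart between the genes, and how they were assigned is not given in the sources used here. Summed, both genes were at 9.61 FPKM in the control library and 5.94 FPKM after CRNDE knockdown, a change of -0.61. With the GC median subtracted the sum was at -0.27, inside the threshold. These sums were chosen after seeing the data. PIK3R3, a smaller regulatory subunit gene, was at 2.19 FPKM in the control library and 2.05 FPKM after CRNDE knockdown.

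The catalytic subunits of PI3K were similar in sum, with 41.2 FPKM in the control library and 39.7 FPKM after CRNDE knockdown, and differed in make-up. PIK3CD encodes p110δ, the form found mostly in white blood cells. It was at 19.5 FPKM in the control library and 12.2 FPKM after CRNDE knockdown, a change of -0.63, and at -0.47 with the GC median subtracted it was not past 1.5-fold. PIK3CD made up 47.3% of the sum in sh-Control and 30.7% in sh-CRNDE. PIK3CA (6.06 and 7.12 FPKM), PIK3CB (8.14 and 10.5 FPKM) and PIK3CG (7.49 and 9.89 FPKM) each had a higher value in sh-CRNDE, by less than 1.5-fold.

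**Figure D3:**
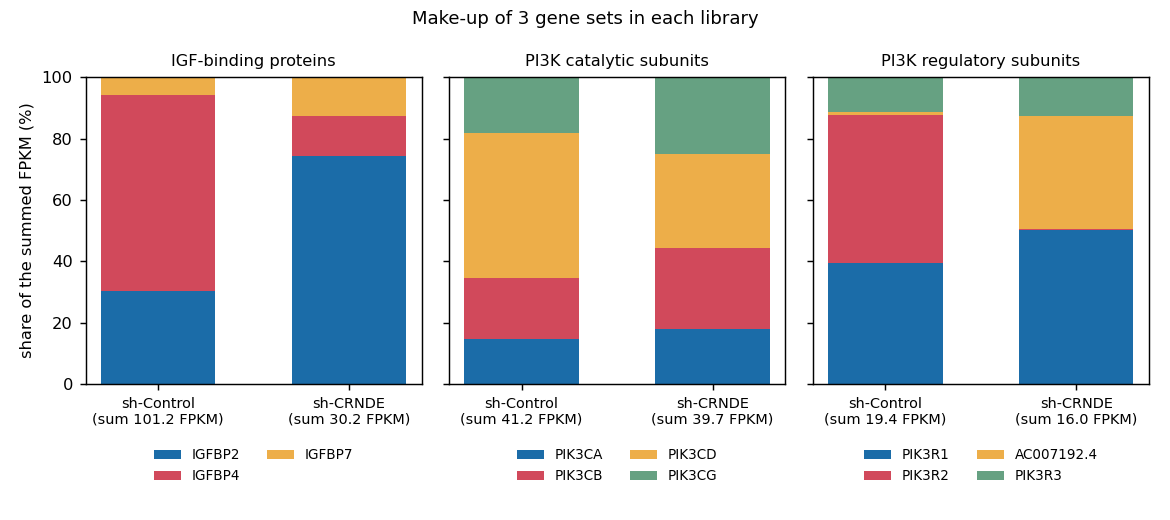
Stacked bars give the share (%) of the summed FPKM that each gene took in each library, for the IGF-binding proteins, the PI3K catalytic subunits and the PI3K regulatory subunits with the overlapping gene AC007192.4. IGFBP4 shrank from 63.7% to 12.9% of its set, and in the right panel PIK3R2 takes 48.3% in sh-Control and AC007192.4 takes 36.6% in sh-CRNDE.

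AKT1 and AKT2 encode the kinases that carry the PI3K signal onward. AKT1 was at 10.2 FPKM in the control library and 8.49 FPKM after CRNDE knockdown. Its change of -0.24 was the lowest of the 6 genes within the threshold, and genes of similar GC content had a median change of -0.22. The last value left a change of -0.02 for AKT1. AKT1 has 15 exons and spans 104769349 to 104795751 of chromosome 14, minus strand. Of the AKT1 transcript, 663 nucleotides (22.4%) overlap an annotated antisense lncRNA gene, and reads of that stretch cannot be assigned by strand. AKT2 was at 2.83 FPKM in the control library and 2.85 FPKM after CRNDE knockdown. Its change was less than 0.01, and it was 0.17 with the GC median subtracted. AKT2 was the lowest of the 9 genes in both libraries. AKT2 has 14 exons and spans 40230317 to 40285536 of chromosome 19, minus strand. The ratio of AKT1 to AKT2 was 3.61 in sh-Control and 2.98 in sh-CRNDE. Around the AKT kinases, 0 of the 5 other listed genes (PDPK1, MTOR, RICTOR, MAPKAP1 and MLST8) were past 1.5-fold, beside 17.2% of all genes in either direction. Their changes ran from the -0.37 of MTOR to the 0.21 of RICTOR.

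FOXO3 encodes a transcription factor that AKT holds in the cytoplasm and that turns on genes of cell cycle arrest and cell death. It was at 5.35 FPKM in the control library and 4.75 FPKM after CRNDE knockdown, a change of -0.14. FOXO3 has 3 exons and spans 108559835 to 108684774 of chromosome 6, plus strand. Of the 7266 stretches of 31 nucleotides in its transcript, 47.2% also occur in FOXO3B, a gene derived from a copy of it. FOXO3B is listed at 0 for the control and at 1.16 FPKM after CRNDE knockdown. Summed, FOXO3 and FOXO3B were at 5.35 FPKM in the control library and 5.91 FPKM after CRNDE knockdown, a change of 0.12, so the direction for FOXO3 turns when the copy is counted with it. FOXO4 was at 2.67 FPKM in the control library and 1.62 FPKM after CRNDE knockdown, a change of -0.48, which was -0.69 and past 1.5-fold with a pseudocount of 0.1. FOXO1 was at 0.551 FPKM in the control library and 0.582 FPKM after CRNDE knockdown, and FOXO3 was the most abundant listed FOXO transcript in both libraries.

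**Figure D4:**
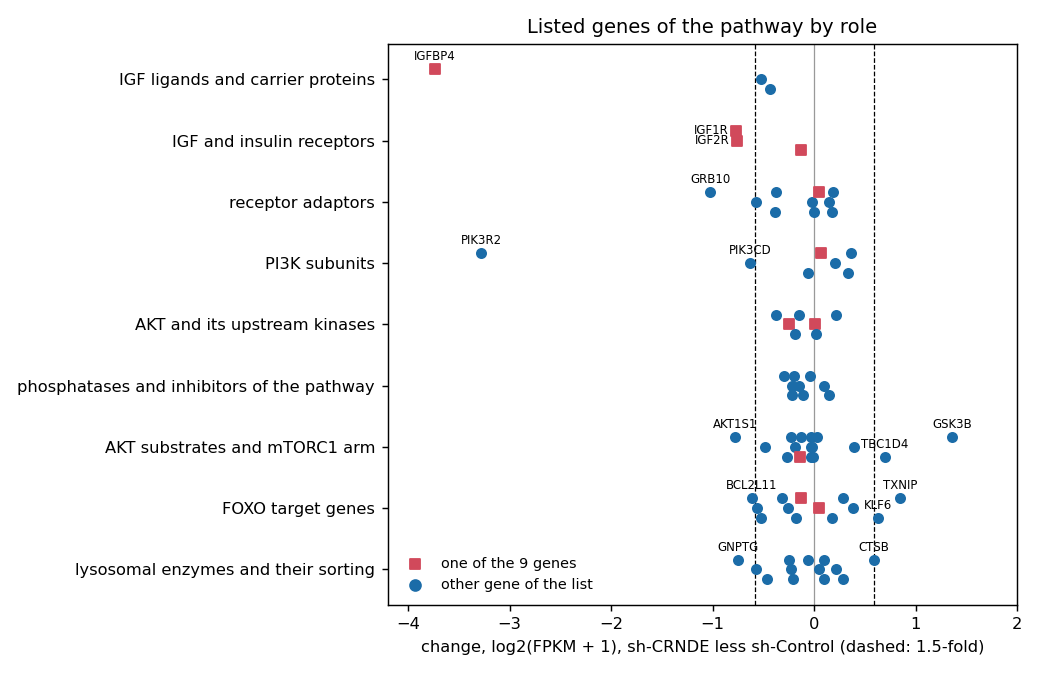
Change of each listed gene of the pathway lists, 1 row per role, with squares for the 9 genes and circles for the others (the vertical offset in a row only separates points). Dashed lines mark 1.5-fold, and genes past them are named. A member of 2 lists appears in both.

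The rest of the pathway was taken from lists of genes by role. Of 91 genes other than the 9, 70 had a listed value, and 6 of them were lower and 5 higher past 1.5-fold. These were 8.57% and 7.14% of the 70 genes, near the 8.83% and 8.38% of all genes. With a pseudocount of 0.1, 12 were lower and 5 higher, beside 14.8% lower and 13.6% higher of all genes. After rescaling to TPM, 12 were lower and 5 higher, beside 14.5% and 12.8% of all genes. In both, the 6 genes added were IGFBP7, SHC1, FOXO4, CITED2, MAN2B1 and GAA. MAN2B1 and GAA encode lysosomal enzymes. The median change of the 70 genes was -0.09.

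The genes past the threshold were spread over several roles. The lists by role are short, and 17.2% of all genes were past 1.5-fold in either direction. Nothing is read from the count of a single role. Among the receptor adaptors, 1 of 9 was lower past 1.5-fold: GRB10, which binds the activated insulin and IGF1 receptors and dampens their signal, was at 9.44 FPKM in the control library and 4.15 FPKM after CRNDE knockdown, a change of -1.02. SHC1 (-0.57), which links receptors to RAS, was just inside the threshold and past it with a pseudocount of 0.1 (-0.64). SHC1 shares 335 exonic nucleotides with PYGO2 on the same strand. PYGO2 went the other way, from 0.593 FPKM in the control library to 2.90 FPKM after CRNDE knockdown. How reads of the shared stretch were assigned is not given in the sources used here. GRB2, the adaptor that follows SHC1, was at 44.3 FPKM in both libraries. Of the 9 listed phosphatases and inhibitors, INPP5D and PTPN1 among them, 0 were past 1.5-fold, with changes from the -0.30 of INPPL1 to the 0.15 of INPP4B. Of 15 AKT substrates and genes of the mTORC1 arm, 2 were higher and 1 lower. GSK3B, a kinase that AKT switches off, was at 2.02 FPKM in the control library and 6.75 FPKM after CRNDE knockdown, a change of 1.36. GSK3A, its close relative, was at 8.88 FPKM in the control library and 8.67 FPKM after CRNDE knockdown. TBC1D4, an AKT substrate that controls transport of glucose carriers to the cell surface, was at 5.50 FPKM in the control library and 9.54 FPKM after CRNDE knockdown, a change of 0.70. AKT1S1, which encodes the mTORC1 inhibitor PRAS40, was at 5.64 FPKM in the control library and 2.88 FPKM after CRNDE knockdown, a change of -0.78. With the GC median subtracted it was at -0.43, inside the threshold.

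Of 11 FOXO target genes other than the 9, 2 were higher and 1 lower past 1.5-fold, beside 8.38% higher and 8.83% lower of all genes. TXNIP, which limits glucose uptake, was at 10.4 FPKM in the control library and 19.5 FPKM after CRNDE knockdown, a change of 0.85. KLF6, a transcription factor gene (0.62), was higher as well, and at 0.54 it was not past the threshold with the GC median subtracted. BCL2L11, which encodes the cell death protein BIM and overlaps MIR4435-2HG on the opposite strand over 14.3% of its canonical transcript, had a change of -0.61, and at -0.58 it was not past the threshold after quantile normalization. CDKN1B (0.38), SESN1 (0.29) and SOD2 (0.18) had higher values in sh-CRNDE. SESN3 (-0.52), CITED2 (-0.56), CAT (-0.32), GADD45A (-0.26) and CCNG2 (-0.18) had lower values there. All of these were inside the threshold on the log2(FPKM + 1) scale. CITED2 was past it with a pseudocount of 0.1 (-0.64) and SESN3 with the GC median subtracted. Of the 13 listed genes of this list, now with IRS2 and INSR counted, 7 had a change below 0 and 6 above 0.

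Beside IGF2R, 13 genes of lysosomal enzymes, of the mannose 6-phosphate tag and of its other receptor were listed, and 1 was lower and 1 higher past 1.5-fold. Of all genes, 8.83% were lower and 8.38% higher past it. GNPTG, a subunit of the enzyme that makes the tag, was at 2.44 FPKM in the control library and 1.04 FPKM after CRNDE knockdown, a change of -0.75, and with the GC median subtracted it was at -0.5845, just inside the threshold. Of its canonical transcript, 46.0% overlaps UNKL on the opposite strand. CTSB, a lysosomal protease gene, was at 4.21 FPKM in the control library and 6.84 FPKM after CRNDE knockdown, a change of 0.59, close to the threshold. Over all 13, the median change was -0.06.

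The 4 miR-181 microRNAs, which the study followed as partners of CRNDE, share 1 seed, and a match to that seed in a 3' UTR is the pattern by which such a microRNA finds its targets. The mature sequences from RefSeq (GRCh38.p14) are shown with the seed, bases 2 to 8, in capitals.
hsa-miR-181a-5p: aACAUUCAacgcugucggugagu
hsa-miR-181b-5p: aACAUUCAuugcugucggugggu
hsa-miR-181c-5p: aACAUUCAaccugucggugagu
hsa-miR-181d-5p: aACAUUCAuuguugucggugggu
The letters TGAATGT, which pair with the seed, were searched on the transcript strand of the 3' UTR of each canonical transcript in GENCODE release 44. Of the 9 genes, 4 hold the match once each, with 10 bases on each side shown and the match in capitals.
IGFBP4: aagagtggacTGAATGTgcctaatgga
INSR: aaatgtccttTGAATGTcacctggtga
IRS2: aagacaaagtTGAATGTaaagtgatct
AKT2: agattttaagTGAATGTaagcagaaaa
The stretches lie at chr17:40457402-40457428 (plus strand), chr19:7113053-7113079, chr13:109754644-109754670 and chr19:40231509-40231535 (minus strand), in that order. The match was found in 21.4% of the 9946 listed protein-coding genes with a 3' UTR, whose median 3' UTR was 1276 nucleotides. Over the 9 genes the median was 4220 nucleotides. With a 3' UTR of 1000 to 2000 nucleotides, such as IGFBP4 (1142), 20.1% of the genes held the match. The share was 32.4% at 2000 to 4000 nucleotides, such as IRS2 (3609) and AKT2 (3555). At 4000 nucleotides or more, such as INSR (4791), it was 56.0%. IGF1R, IGF2R, PIK3R1, AKT1 and FOXO3 hold 0 matches, with 3' UTRs of 992 to 7088 nucleotides. The genes with the match had changes of -3.74 (IGFBP4) and of -0.13 to 0.05 (INSR, IRS2 and AKT2). IGF1R and IGF2R, also lower past 1.5-fold, are among those without it. Only the letters TGAATGT were searched, so other forms of site are not covered. A link between the match and the changes was not tested. A match of letters is a description, not a binding site shown in these cells.

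Markers of myeloid cells were checked as well. Most are of the promyelocyte, the cell type NB4 represents, while CD34 marks stem cells, which the paper sets apart from promyelocytes. Of 10 such markers, 7 were listed, MPO among them with 1135 FPKM in the control library and 738 FPKM after CRNDE knockdown, while ELANE, CD34 and KIT had no listed value. Of the 7 genes, 4 (MPO, PRTN3, CTSG and AZU1) were lower and 1 (CEBPE) was higher past 1.5-fold, beside 8.83% and 8.38% of all genes. On the log2(FPKM + 1) scale PRTN3 differed most among the lower ones. It was at 200.5 FPKM in the control library and 41.8 FPKM after CRNDE knockdown, a change of -2.23. CEBPE was at 0.748 FPKM in the control library and 8.75 FPKM after CRNDE knockdown, a change of 2.48. MPO had the smallest change of the 4 on the log2(FPKM + 1) scale (-0.62), while its fall in FPKM was the largest. It also made up most of the sum over the 7 genes, which was 1433 FPKM in the control library and 841 FPKM after CRNDE knockdown. Of 10 genes taken as markers of other cell types, 4 were listed (CD3D, PECAM1 and EPCAM among them). Their summed level was 9.15 FPKM in the control library and 9.05 FPKM after CRNDE knockdown. EPCAM was the highest of them, at 4.82 FPKM in the control library and 4.49 FPKM after CRNDE knockdown. The myeloid marker CD33 was at a similar level, with 4.46 FPKM and 3.74 FPKM. CD3E, MS4A1, HBB, ALB and COL1A1 were among those with no listed value. The part of the marker shift in the levels of IGFBP4, IGF1R and IGF2R was not tested. GAPDH, a common reference gene, was at 942 FPKM in the control library and 785 FPKM after CRNDE knockdown, a change of -0.26. The mitochondrial rRNA gene MT-RNR2 is listed at 0 in sh-Control and made up 16.2% of the summed FPKM in sh-CRNDE.

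**Figure D5:**
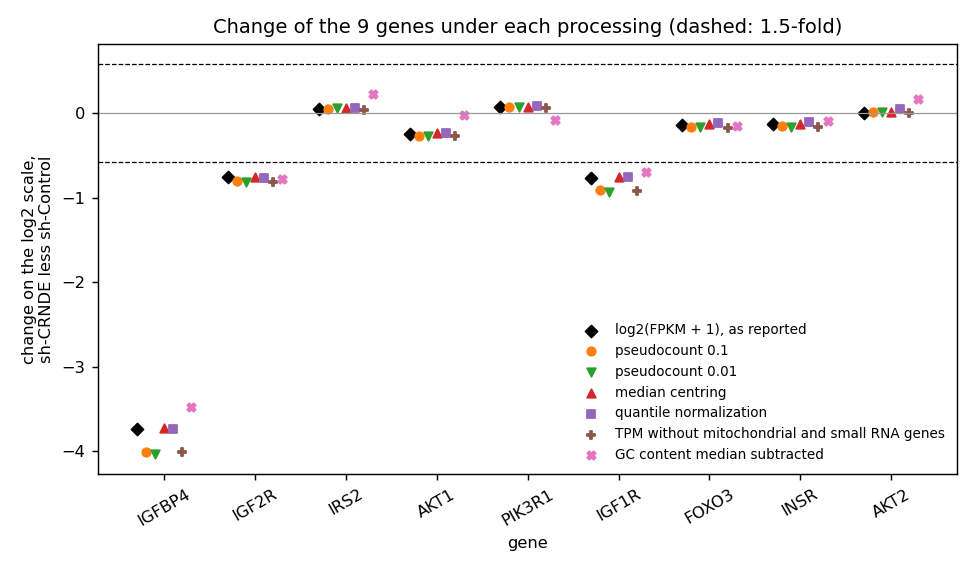
Change of each of the 9 genes (log2 scale, sh-CRNDE less sh-Control) as reported and under 6 other ways of processing, with dashed lines at 1.5-fold. IGFBP4 ran from -4.04 to -3.48, IGF1R from -0.93 to -0.70 and IGF2R from -0.82 to -0.76, and the other 6 genes stayed within 1.5-fold each time.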

How the data were processed

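RNA of NB4 cells was extracted with the RNeasy mini kit, and libraries were made with the TruSeq RNA Sample Prep Kit v2. The authors deposited FPKM values per gene, 1 file per library. Per the labels' processing notes, fastp 0.20.0, HISAT2 2.0.4 and StringTie 1.2.3 were used with GRCh38, and the supplementary methods refer to a Ballgown protocol. The annotation release is not given in the sources used here. Each listed gene exceeds 0.5 FPKM in one library or both. FPKM values keep no counts, and of the lowest 100 products of FPKM and length at single-exon genes, 16.0% (sh-Control) and 9.0% (sh-CRNDE) were whole multiples of the smallest within 0.05, so no interval for counting error could be given.

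From these files, log2(FPKM + 1) in sh-CRNDE less that in sh-Control was taken for all 11619 genes. The pseudocount of 1 understates the change of low genes. The threshold of 1.5-fold is the one the study used. With 1 library per group, no test was run. The members and lists were chosen with earlier results of these data known. Named are the 9 genes, CRNDE and GAPDH, all listed carriers and receptors, and list genes past 1.5-fold with a mean of at least 1 FPKM. Other genes in the text, such as AC007192.4, FOXO3B, IRS1 and M6PR, were named after their values were seen. Loci, exons, GC content and 3' UTRs come from the canonical transcripts of GENCODE release 44 (GRCh38), in which 11508 of the genes matched by identifier and 111 did not. The change calculation, quantile normalization and GC subtraction were run on control library values with planted changes. The changes were planted with the same formula that reads them, so their recovery was fixed in advance. Centring and TPM were not run this way. Alternatives were other pseudocounts, centring, quantile normalization, TPM, GC content in 20 bins, a 2-fold threshold and a filter on low values. Python 3.11.15, numpy 2.4.6, pandas 2.3.3 and matplotlib 3.10.9 were used. Some items of the lists are not reported here.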

Additional observations from a re-analysis of the deposited data

How the results depend on the processing

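The 3 genes lower past 1.5-fold (IGFBP4, IGF1R and IGF2R) were past it under both other pseudocounts, centring, quantile normalization, rescaling to TPM, subtraction of the GC median and the filter on low values. With a 2-fold threshold, which is stricter by construction, 1 of the 9 genes (IGFBP4) was lower past it. Of 72 values of single genes under the alternatives, 70 kept their side of the threshold, and the others were IGF1R and IGF2R at 2-fold. Part of this count was fixed in advance. The filter could not move a value, since all 9 genes were above 1 FPKM in both libraries. Genes inside 1.5-fold could not pass 2-fold with the same value. Within the threshold, PIK3R1 changed sign with the GC median subtracted (-0.09), AKT2 did after rescaling to TPM (-0.01), and FOXO3 did when summed with FOXO3B (0.12), a sum chosen after seeing the data. The count of pathway genes past the threshold, 11 as reported, was 17 with a pseudocount of 0.1, 17 with 0.01, 17 after rescaling to TPM and 3 with a 2-fold threshold. With the pseudocount of 0.1, 14.8% of all genes were lower and 13.6% higher past 1.5-fold, so the background rose too. These shares were 15.7% and 14.2% with 0.01, 14.5% and 12.8% after rescaling to TPM, and 3.23% and 3.43% past 2-fold. PIK3R2 is among the pathway genes past 2-fold, and its sum with the overlapping AC007192.4 was at -0.61. No library could be left out, as each group had 1. No paired analysis was possible because each group had 1 library. The effect of the knockdown and the spread between libraries of 1 condition cannot be told apart.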

Other observations

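A group of genes that the lists did not hold encodes proteins that bind the mRNA of IGF2 and of other genes, the IGF2BP family, and these were looked at after the values were seen. IGF2BP3, known as a fetal gene that is active again in some leukemias, was at 4.62 FPKM in the control library and 11.8 FPKM after CRNDE knockdown, so its log2(FPKM + 1) was higher by 1.18, and 97.4% of all genes had a lower change. Of its canonical transcript, 35.6% overlaps MALSU1 on the opposite strand, which was at 6.83 FPKM in the control library and 9.66 FPKM after CRNDE knockdown. IGF2BP1 was at 7.73 FPKM in the control library and 6.66 FPKM after CRNDE knockdown, a change of -0.19. IGFLR1, which is in neither the IGF2BP family nor the pathway lists, was at 0.699 FPKM in the control library and 0.621 FPKM after CRNDE knockdown. IGF2 itself, for which the IGF2BP family is named, had no listed value in these libraries.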
